A study of Mus musculus with 6 samples.

Results

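The 10 genes described here build the synaptonemal complex or carry out meiotic recombination: Sycp1, Sycp2, Sycp3, Syce1, Stag3, Rec8, Dmc1, Spo11, Msh4 and Msh5. They were chosen by name, and a probe set counted as theirs where the platform annotation gave it 1 of these symbols and no other. Of the 10 genes, 9 had such a probe set, among 15964 genes with a symbol of their own on the arrays. Sycp2 had none, so its expression was not analysed here. The 9 genes had 12 of the 36701 probe sets, 5 on the chip U74Av2, 0 on U74Bv2 and 7 on U74Cv2.

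The RNA was total RNA, and its labels name spermatogonia, which are the germ cells of the testis that still divide by mitosis. The Null group came from Zfp145 knock-out mice and the WT group from wild-type mice, and no other treatment is labelled. Zfp145, now Zbtb16 and also called PLZF, is a zinc finger repressor needed to maintain the stem cells of the male germ line. Both groups were 1 week old and on a mixed background, which the labels spell 129sv/c57Bl6, 129sv-C57Bl/6 or 129sv-C57BVl-6. There were 3 chips with different probe sets, and on each of them 1 array was used for Null and 1 for WT. The labels give neither the allele, nor the way the cells were isolated, nor the number of animals, nor whether 1 RNA extract served all chips of a genotype. There are no replicates, so every difference below compares single arrays, has no replicate check and carries no p-value. The number of arrays limits the precision.

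In meiotic prophase homologous chromosomes pair, break their DNA, repair it from each other and form crossovers. SPO11 makes the breaks, DMC1 is the recombinase that searches the homologue, and MSH4 with MSH5 stabilises the joint molecules that become crossovers. REC8 and STAG3 are meiotic subunits of cohesin, SYCP2 and SYCP3 form the chromosome axis on that cohesin, SYCP1 is the transverse filament that zips the axes together, and SYCE1 belongs to the central element. Spermatogonia divide by mitosis, and spermatocytes in meiotic prophase appear in the mouse testis at about this age or soon after it.

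The promoters of 9 members, Sycp2 among them and Spo11 not, were available from RefSeq on the build GRCm38. Their windows of 300 bases ran from 250 before the start of the gene to 50 after it. Each was searched on both strands for CACGTG, the canonical E-box of basic helix-loop-helix factors, for TTCCCGC, a core of E2F binding sites, and for CNCCTCAG, the motif reported for the meiotic initiator STRA8. CACGTG occurred in 3 of the 9, against 7.15% of 32851 promoter windows of the same length. These were Sycp1 with 1 copy, Stag3 with 1 and Sycp3 with 2, while 0.594% of all windows held at least 2. TTCCCGC stood in Sycp3, Stag3 and Msh5, against 4.6% of all windows, and CNCCTCAG in Sycp1 and Msh5, against 7.94%. No 2 different motifs overlapped in these promoters, and a match in letters does not show that a factor binds. The members' promoters had a median of 58.3% G and C, against 52.7% for all windows. TTCCCGC stood in as many member promoters as CACGTG, and it is not marked below. The promoters with CACGTG are printed 5′ to 3′ as an example of a motif that some members share, with that motif in capitals. They lie at chr3:102936051-102936350 on the minus strand, at chr10:88459337-88459636 on the plus strand and at chr5:138280259-138280558 on the plus strand. That of Syce1, at chr7:140787805-140788104 on the minus strand, follows them because Syce1 differed most between the arrays relative to the spread described below, and it held none of the 3 motifs.
Sycp1: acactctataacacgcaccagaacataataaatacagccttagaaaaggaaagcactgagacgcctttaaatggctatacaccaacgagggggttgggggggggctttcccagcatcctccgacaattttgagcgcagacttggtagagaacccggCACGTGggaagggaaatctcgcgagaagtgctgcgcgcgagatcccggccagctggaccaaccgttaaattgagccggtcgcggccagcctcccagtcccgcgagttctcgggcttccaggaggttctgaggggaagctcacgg
Sycp3: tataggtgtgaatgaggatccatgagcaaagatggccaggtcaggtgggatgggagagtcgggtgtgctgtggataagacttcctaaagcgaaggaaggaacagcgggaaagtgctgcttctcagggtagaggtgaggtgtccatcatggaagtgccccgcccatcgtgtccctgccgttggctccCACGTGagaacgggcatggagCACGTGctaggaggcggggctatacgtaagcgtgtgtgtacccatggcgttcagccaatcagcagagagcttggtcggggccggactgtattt
Stag3: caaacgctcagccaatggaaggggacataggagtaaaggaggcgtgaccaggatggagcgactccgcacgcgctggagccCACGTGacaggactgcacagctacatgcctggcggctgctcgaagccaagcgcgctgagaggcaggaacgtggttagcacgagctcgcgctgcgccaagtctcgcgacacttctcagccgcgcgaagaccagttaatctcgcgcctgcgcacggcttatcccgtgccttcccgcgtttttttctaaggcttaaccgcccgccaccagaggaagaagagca
Syce1: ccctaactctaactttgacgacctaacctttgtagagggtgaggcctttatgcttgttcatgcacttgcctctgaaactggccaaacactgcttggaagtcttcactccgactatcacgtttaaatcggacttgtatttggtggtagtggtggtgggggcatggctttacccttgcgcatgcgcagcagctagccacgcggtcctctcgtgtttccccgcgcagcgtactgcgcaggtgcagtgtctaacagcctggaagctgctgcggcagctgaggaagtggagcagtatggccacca

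The files hold 1 intensity per probe set on a linear scale. Within each chip the Null array was scaled to the WT array and a floor was set at the 40th percentile of both, at 98.3 on U74Av2 and 124.1 on U74Cv2. Single intensities are printed as deposited, while log2 ratios, folds and sums of intensities use the Null values after scaling. A probe set is called measured where at least 1 of its arrays lies above the floor. By that rule 9 of the 12 probe sets and 8 of the 10 genes were measured. The others were Msh4, whose single probe set read 44.9 in Null and 61.7 in WT, a second probe set of Syce1 at 10 in Null and 7.6 in WT, and a second of Sycp3 at 17.3 in Null and 36.2 in WT. They lie under the floor on both arrays and give no fold.

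**Figure D1:**
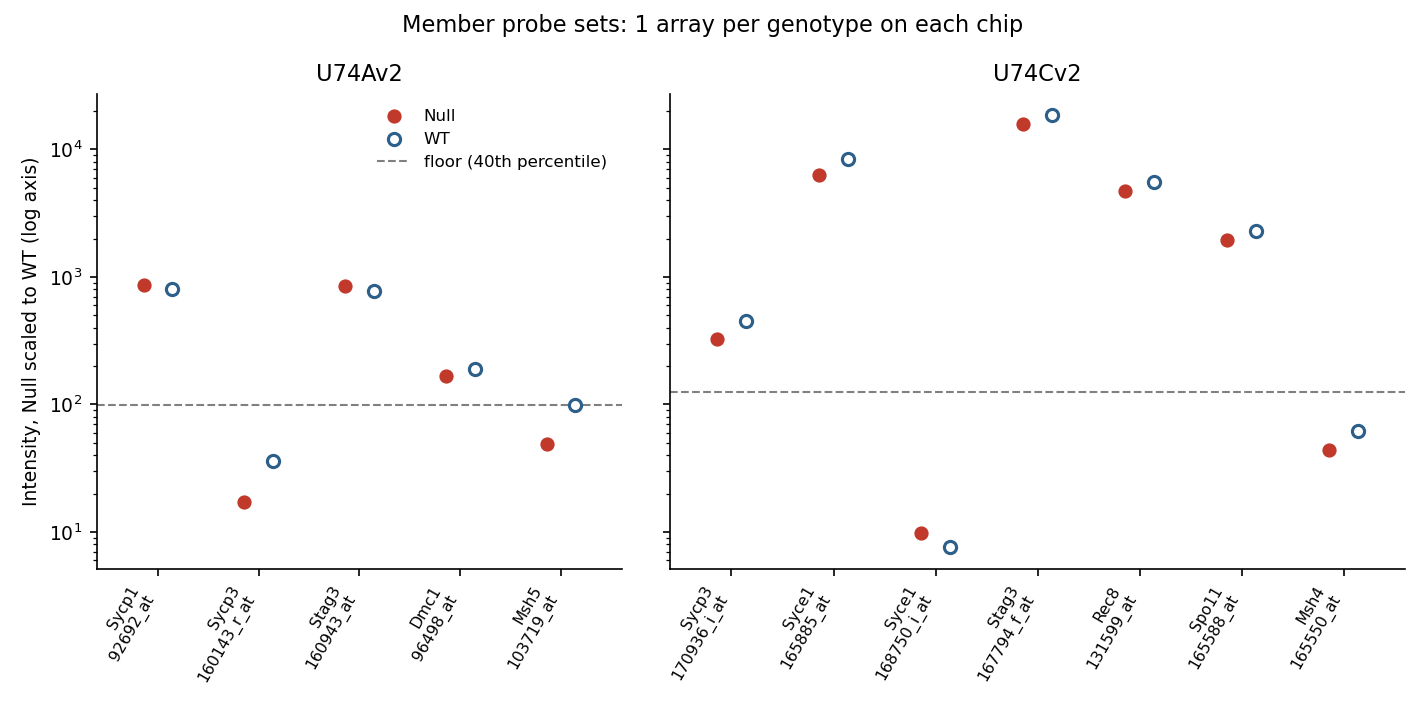
Intensity of each member probe set (log axis) on the Null array, scaled to WT, and on the WT array, by chip, with the floor at the 40th percentile dashed. On U74Cv2 all 5 probe sets above the floor read lower in Null than in WT, and on U74Av2 Sycp1 and Stag3 read slightly higher in Null.

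Several of these meiotic genes ranked among the brightest probe sets of U74Cv2. A level percentile here is the share of probe sets of the same array at or below the given one, and because probe sets differ in how well they hybridise, it does not order the amounts of different RNAs. Stag3 stood at the 99.8th percentile in Null and at the 99.8th in WT, rank 29 of 11868 in Null and rank 20 in WT. Syce1 stood at the 98.6th percentile in Null and the 99.0th in WT, and Rec8 at the 97.9th in Null and the 98.2nd in WT. Spo11 stood at the 92.9th percentile in Null and the 94.0th in WT. The members on U74Av2 ranked lower.

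Sycp1 stood at the 80.7th percentile of U74Av2 in Null and the 79.6th in WT, beside Stag3 on the same chip at the 80.2nd in Null and the 79.0th in WT. Dmc1 was near the middle, at the 49.7th in Null and the 51.5th in WT. Msh5 was at the 30th in Null and the 39.3rd in WT. Probe sets of the same gene disagreed widely in rank, so a rank belongs to a probe set and not to its gene. Sycp3 was at the 60.9th percentile in Null and the 68.7th in WT on U74Cv2, but its probe set on U74Av2 was at the 16.5th in Null and the 22.7th in WT. The second probe set of Syce1 was at the 3.67th percentile in Null and the 1.94th in WT. The names of 4 of the 12 probe sets carry a suffix letter, which marks a design other than the plain one. These were both probe sets of Sycp3, the second of Syce1 and that of Stag3 on U74Cv2.

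**Figure D2:**
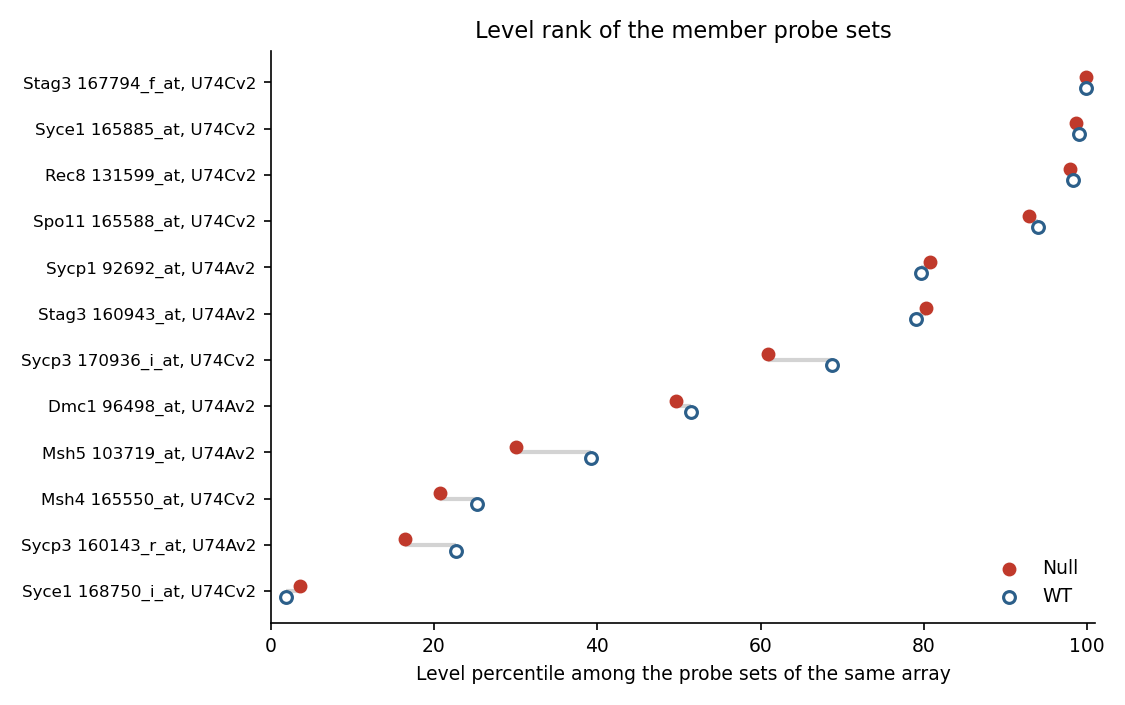
Level percentile of the 12 member probe sets on the Null array and on the WT array of their chip, ordered by WT. 4 probe sets of U74Cv2 lie above the 92nd percentile on both arrays, and 4 lie below the 40th.

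No member probe set above the floor on both arrays differed by 2-fold between the genotypes, in either direction, and Msh5 gives only a bound, described below. Of all measured probe sets, 0.332% lay 2-fold or more above WT in Null on U74Av2 and 0.575% lay 2-fold or more below. On U74Cv2 these were 5.68% and 5.46%. Set beside these shares, a count of 0 among the 8 member probe sets above the floor on both arrays is no result about the members. A smaller difference ran one way on U74Cv2, where 5 of 5 measured member probe sets read lower in Null, with a median log2 ratio of Null over WT of -0.24. Over all 7961 measured probe sets of that chip the median was -0.01 and 50.8% lay below 0. Among the 1176 at or above the 90th level percentile, where 4 of the 5 stand, the median was -0.03 and 53.1% lay below 0. On U74Av2 the 3 member probe sets above the floor on both arrays ran from -0.19 to 0.13, and the 4 measured ones, with Msh5 at its bound, had a median of 0.05.

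With no replicate arrays, the one spread at hand is that between log2 ratios of different probe sets of a gene within a chip, taken separately for low, middle and high level. It holds technical spread and differences between transcripts, not the spread between animals. On U74Cv2 it was 0.58, 0.44 and 0.31 from low to high level, and on U74Av2 0.35, 0.27 and 0.15. Of the 8 member probe sets above the floor on both arrays, the main one of Syce1 alone differed by more than this spread. In its level class on U74Cv2 31.3% of all probe sets did.

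Among the genes of the complex itself, Syce1 read 6353.4 in Null and 8469.8 in WT. Its log2 ratio was -0.44, or 1.35-fold lower in Null, and 19.6% of the measured probe sets of the chip had a ratio as low or lower. Sycp3 read 328.5 in Null and 449.5 in WT, a log2 ratio of -0.48, or 1.39-fold lower. That is the lowest ratio among the member probe sets above the floor on both arrays, but at this dimmer level the spread was 0.58. Sycp1 read 874.5 in Null and 803 in WT on U74Av2, a log2 ratio of 0.11 against a spread of 0.27. The central element, the axis and the transverse filament were thus each represented by 1 measured probe set, with 2 ratios below 0 and 1 above.

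The meiotic cohesin subunits gave values that depend on the chip. Stag3 read 15959.3 in Null and 18598 in WT on U74Cv2, a log2 ratio of -0.24 with a spread of 0.31 at this level. On U74Av2 another probe set of Stag3 read 855.7 in Null and 779.4 in WT, a log2 ratio of 0.13. The gene is thus below 0 on one chip and above 0 on the other, each time by less than the spread. Rec8, the subunit that replaces RAD21 in meiotic cohesin, read 4801 in Null and 5576.8 in WT, a log2 ratio of -0.24. It had no other probe set.

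Among the recombination genes, Spo11 read 1985.4 in Null and 2305 in WT, a log2 ratio of -0.24 with a spread of 0.31. Dmc1 read 168.2 in Null and 190.1 in WT, a log2 ratio of -0.19 with a spread of 0.35. Both values lie below 0 by less than the spread. Msh5 read 49.2 in Null and 98.8 in WT, and since the WT value is barely above the floor of 98.3 and the Null value under it, Msh5 was at least 1.01-fold lower in Null. Without a floor its log2 ratio was -1.01, which rests on 2 dim readings.

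**Figure D3:**
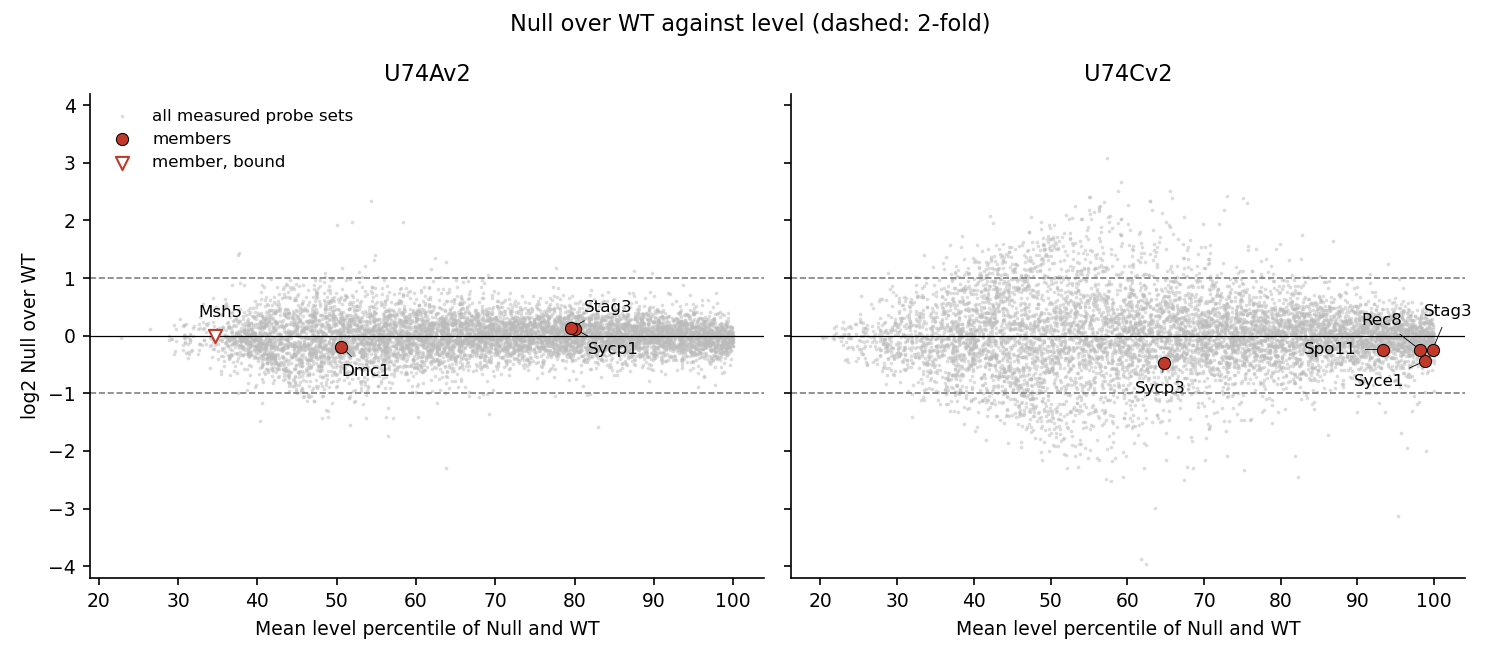
Log2 ratio of Null over WT against the mean level percentile of both arrays, for all measured probe sets (grey) and the members (red), on U74Av2 and U74Cv2. The members lie within the 2-fold lines, with Msh5 at its bound, and on U74Cv2 they lie between -0.48 and -0.24.

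Each gene was then represented by its measured probe set of the highest level percentile, in order to set the members beside other genes of the same process. The 8 measured members had 1 ratio above 0 and 7 below, and their median was -0.24. Among those below 0, Msh5 was a bound of -0.01 and Stag3 had another probe set at 0.13. All 12447 measured genes had a median of -0.01, with 6036 above 0 and 6410 below. Without U74Cv2 the median was 0.05 over the 4 members left, so the value below 0 rests on that chip.

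Of 11 further genes of the synaptonemal complex and its axis 5 had a probe set and 4 were measured, with a median of -0.28. The central element genes Tex12 at -0.44, Syce3 at -0.51 and Syce2 at -0.11 were below 0. Tex12 read 5137.8 in Null and 6872.3 in WT on U74Cv2, at the 98.1st percentile in Null and the 98.6th in WT, a difference close to that of Syce1. Hormad2, an axis protein, was 3.33-fold higher in Null at a log2 ratio of 1.73, from 446.5 in Null and 132.1 in WT, on 1 dim probe set of U74Cv2 with a suffix letter. It is the single gene of this list past 2-fold, on a chip where 5.68% of measured probe sets lay as far above WT in Null. Tex12, Syce3 and Syce2 were named after their values were seen, to account for the whole list.

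Of 19 further meiotic recombination genes 7 had a probe set and 5 were measured, with a median of 0.05 and none past 2-fold. Hsf2bp, which helps to load the meiotic recombinases, read 4952.1 in Null and 5490.6 in WT, a log2 ratio of -0.17, and its other probe sets gave -0.24 and -0.46. All of its probe sets are on U74Cv2 and carry a suffix letter. Mlh3, which acts at crossovers, stood at 0.05 on a probe set of U74Bv2 with a suffix letter. A dim probe set of Mlh3 on U74Cv2 read 23.5 in Null and 132.8 in WT, a bound of -0.10. Trip13, the ATPase that remodels HORMA proteins, stood at 0.73, from 713.1 in Null and 426.1 in WT on U74Av2. It was named after its values were seen, for its size against a spread of 0.27.

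Other lists hold genes that serve the same functions in mitotic cells. Of 16 general cohesin genes 14 were measured, 10 of them above 0, with a median of 0.04. Rad21, the mitotic counterpart of Rec8, read 4379.5 in Null and 3809.1 in WT, a log2 ratio of 0.19. Stag1 and Stag2, the counterparts of Stag3, stood at 0.43 and -0.12, and other probe sets gave 0.37 and -0.88 for Stag1 and 0.12 for Stag2. These counterparts were named for their role after the values were seen, while the brightest genes of the list were Espl1, the protease separase, at 0.04 and Wapl, which releases cohesin, at 0.01. Of 24 general homologous recombination genes 21 were measured, with a median of 0.04. The brightest were Rad54b, a motor protein of strand exchange, at 0.04 and the checkpoint kinase Atr at -0.12. Of 6 mismatch repair genes, the family of Msh4 and Msh5, 3 were measured, Msh6 at 0.04, Pms2 at 0.36 and Msh3 at -0.25, and a second probe set of Msh6 gave -0.36. Their median of 0.04 is that of Msh6 on U74Cv2, and it was -0.25 without that chip. None of these 3 lists had a gene past 2-fold on any chip, and on U74Bv2, which holds many of these genes, 0.815% of measured probe sets lay 2-fold or more above WT in Null and 1% lay 2-fold or more below. The difference between the members and these lists was not tested, and most members were measured on U74Cv2 while most genes of these lists were measured on the other chips.

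Genes of meiotic entry had a median of -0.10 over 6 measured of 9. The brightest were the RNA-binding protein gene Dazl at 0.56, though a second probe set of Dazl gave -0.32, and the transcription factor gene Dmrt1 at 0.34. These were the 2 genes of the list above 0, with 4 below, and Dazl also counts among the spermatogonial genes below. Stra8, the retinoic acid target that starts meiosis, read 1469.5 in Null and 1649.4 in WT on U74Av2, at the 89.1st percentile in Null and the 90.8th in WT, a log2 ratio of -0.18. Meioc, which holds germ cells in an extended meiotic prophase, stood at -0.39. Both were named for their role after their values were seen. Genes of pachytene and later spermatocytes had a median of -0.19 over 8 measured of 13, with the brightest, Tcfl5 and Tesmin, at 0.28 and -0.56. A second probe set of Tcfl5, on U74Bv2, gave -0.16, and the probe set of Tesmin carries a suffix letter. The later spermatocyte genes Ldhc, Pgk2, Ccna1 and H1f6 were under the floor on both arrays of U74Av2. Their intensities ran from 3.8 to 36.4 in Null and from 5 to 67.4 in WT. These 4 were named after their values were seen. Other genes of this list ranked high. On U74Cv2 Tcfl5 stood at the 98.5th percentile in Null and the 97.8th in WT, and Tesmin at the 93rd and the 95.6th. On U74Bv2 Hspa2, also named after its values were seen, stood at the 93.4th percentile in Null and the 93.7th in WT.

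**Figure D4:**
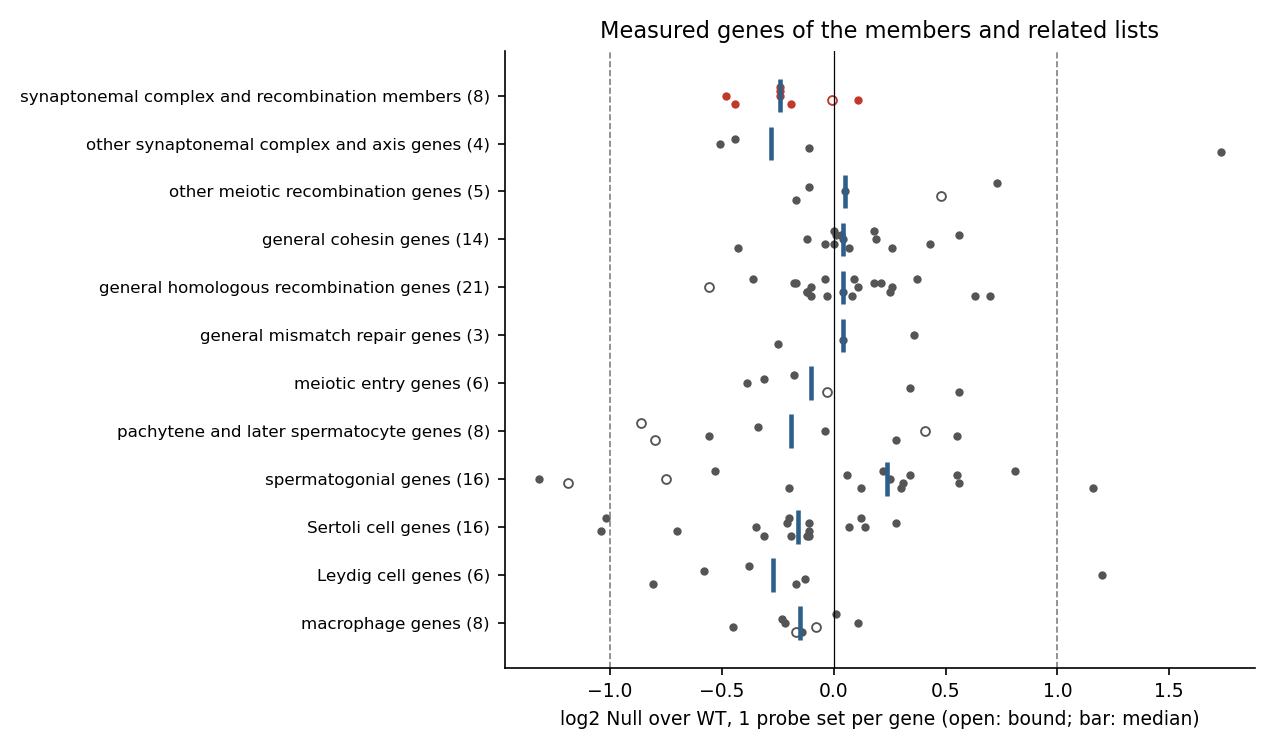
Log2 ratio of Null over WT for each measured gene of the members (red) and of 11 related lists, with the median as a bar, bounds as open circles and the number of measured genes in brackets. The members' median lies at -0.24, and the lists of general cohesin and homologous recombination genes have medians of 0.04, as do the 3 mismatch repair genes, whose median was -0.25 without U74Cv2.

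Marker lists of the cell types that the sample could hold were read in the same way, and fewer cells of a type cannot be told apart from less RNA per cell in such samples. Spermatogonial genes had a median of 0.24 over 16 measured of the 17 with a probe set, and their summed intensity was 18161 in Null and 18629 in WT. That sum and the median differ in sign. Of this list Bcl6b was at least 2-fold higher in Null, at 1.16, while Sall4 at -1.32 and Pou5f1 at a bound of -1.19 were at least 2-fold lower. These values all come from U74Cv2, where 5.68% of measured probe sets lay 2-fold or more above WT in Null and 5.46% below. Utf1 stood at 0.12, but its other probe sets gave a bound of 1.92 on U74Av2 and a bound of -1.59 on U74Cv2. On U74Av2 0.332% of measured probe sets lay 2-fold or more above WT in Null. Utf1 was named after its values were seen. The probe sets of Bcl6b and Sall4 carry a suffix letter. Other probe sets of Sall4 and Pou5f1 disagreed, at 0.27 and 0.63 for Sall4 and at 0.17 for Pou5f1. For Bcl6b, a probe set on U74Av2 gave a bound of 0.21, and its remaining one lay under the floor on both arrays. Sertoli cell genes, all 16 of them measured, had a median of -0.16 and summed to 47605 in Null and 53589 in WT. Their level percentiles ran from 47.4 to 99.6 in Null and from 56.1 to 99.6 in WT. The brightest, Clu and Aard on U74Av2, stood at 99.6 and 99.4 in Null and at 99.6 and 99.5 in WT. These were named after their values were seen. Rhox5 at -1.04 and Tsx at -1.02 were the 2 past 2-fold, on U74Av2, where 0.575% of measured probe sets lay 2-fold or more below WT in Null. For Leydig cell genes the median was -0.27 over 6 measured of 7, and they summed to 4548.2 in Null and 5674.1 in WT. Most of that sum was Nr5a1, which read 2989 in Null and 3864.1 in WT and was named after its values were seen. Hsd17b3 at 1.20 was past 2-fold, on U74Av2, where 0.332% of measured probe sets lay 2-fold or more above WT in Null. Macrophage genes had a median of -0.15 over 8 measured of 8, and summed to 15701 in Null and 19942 in WT. Their brightest genes were Laptm5 at -0.45, on a probe set of U74Cv2 at the 99.4th percentile in Null and the 99.6th in WT, and Cx3cr1 at -0.14. The probe sets of Laptm5 on U74Av2 lay nearer to 0, at -0.01 and -0.19, while that of Cx3cr1 on U74Av2 lay further from it, at -0.27. Most of the macrophage sum was Laptm5 on U74Cv2, which read 10423 in Null and 13972.2 in WT. Adgre1, which encodes the macrophage surface protein F4/80, read 33.5 in Null, under the floor, and 110.4 in WT, just above it, and was named after its values were seen. The part of these cell types in the members' values was not tested.

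The targeted gene was lower in Null where it was measured, at 158.1 in Null and 770.2 in WT on U74Av2 and at 510.8 in Null and 1156.8 in WT on U74Cv2. Whether these probe sets lie in the deleted part is not given. The hybridization controls had median log2 ratios between 0.24 and 0.29 over the chips after scaling, and the 18S rRNA controls 0.46. The ratio of 3′ to 5′ signal of Actb was 2.91 in Null and 3.15 in WT on U74Av2, and 3.15 in Null and 2.95 in WT on U74Cv2. That of Gapdh was 1.23 in Null and 1.21 in WT on U74Av2, and 1.14 in Null and 1.28 in WT on U74Cv2. The part of these differences in the members' values was not tested.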

How the data were processed

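6 single-colour arrays were used, 1 Null and 1 WT on each of 3 chips, with groups taken from the sample titles. The authors deposited linear intensities per probe set, and the software behind them is not given in the sources used here. After trimming 2% at each end, their mean was between 500.1 and 500.3 on every array, which shows that each array had already been scaled to a common level. Probe sets were named from GEO's platform annotation, with 1 symbol for 10833, 10581 and 7717 of them on U74Av2, U74Bv2 and U74Cv2.

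On each chip 66 control probe sets were left out. Null intensities were scaled by the median of Null over WT among probe sets from the 50th percentile of mean rank upward. The largest such shift was 0.02 on the log2 scale. Values below the floor were then replaced by the floor, and the log2 ratio of Null over WT was computed. No test was possible with 1 array per genotype and chip, so differences are counted from 2-fold upward. The spread is the scaled median absolute difference between probe sets of a gene, divided by the square root of 2. The named genes are the targeted gene, all members with a probe set, and of each other list the genes past 2-fold or else the 2 brightest. Genes named outside this rule are given as such where they appear, apart from Msh3, which was named so that all 3 measured mismatch repair genes are given. The members and lists were chosen with earlier results of these data known. Promoters came from RefSeq. Python 3.11.15, numpy 2.4.6, pandas 2.3.3, statsmodels 0.14.6 and matplotlib 3.10.9 were used, and the steps were tested on simulated data.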

Additional observations from a re-analysis of the deposited data

How the results depend on the processing

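The scaling was replaced by none, by quantile normalization and by loess on level. The floor was moved to the 20th percentile, moved to the 60th, and taken away. Thresholds of 1.5-fold and of 3-fold, plain probe sets alone, 2 chips without U74Cv2, and a mean over the probe sets of a gene were also tried. No member probe set above the floor on both arrays was at least 1.5-fold different in the main setting. With the floor at the 20th percentile 1 member probe set was at least 2-fold lower in Null, Msh5, and with no floor 2 were, Msh5 and the dim probe set of Sycp3. The share of all probe sets was taken only for 2-fold in the main setting. These counts therefore have no background beside them and are no result about the members. Without U74Cv2 the median of the member genes was 0.053, against -0.24, and under the other settings it stayed between -0.24 and -0.19. The median of the member probe sets on U74Av2 turned to -0.19 with the floor at the 20th percentile and likewise with no floor. In both cases Msh5 counts at its own low values. The dim probe set of Sycp3 does so with no floor, while with the floor at the 20th percentile its Null value is at that floor. Of the 50 values of single member probe sets 48 moved by less than the spread and none changed sign. The other 2 were those of Msh5 with the lower floor and with none. Much of this count was fixed in advance. Moving the floor leaves the ratio of a probe set unchanged while both its arrays stay above it. Leaving out the scaling shifts a ratio by at most about 0.02. With quantile normalization and with loess Msh5 was not measured, so it gives no value there. With the floor at the 60th percentile neither Msh5 nor Dmc1 was measured. The medians of the other lists gave 99 values, all within the spread of their members, of which 7 changed sign. Of these 4 were the median of the mismatch repair genes, which was -0.247 with plain probe sets and without U74Cv2, -0.16 as a mean over probe sets and -0.104 with no floor. No paired analysis was possible because each genotype has 1 array per chip. Probe sets near the floor limit what can be said of Msh4, Msh5 and Dmc1.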
